A study of Rattus norvegicus with 6 samples.

Results

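YAP, its paralog TAZ, the TEAD transcription factors and 4 of their textbook targets were examined in rat H9c2 cells without Nono. The members were the 10 rows of the gene count table with the symbols Yap1, Wwtr1, Tead1, Tead2, Tead3, Tead4, Ccn1, Ccn2, Ankrd1 and Amotl2, out of 16319 genes. All 10 were among the 12028 genes that passed the filter on low counts, so none was lost before testing. H9c2 is a myoblast line derived from embryonic rat heart. RNA-seq was made from 3 libraries of Nono-KO cells and 3 of wild type (WT) cells, and the ATAC-seq of the same study was not analysed here. The Nono-KO cells carried a knockout of the Nono gene, made with a Cas9 and puromycin resistance plasmid (PX459) holding a single guide RNA and kept under puromycin to obtain a stable line. A plasmid for green fluorescent protein (pEGFP-N1) is named as the control. Both groups grew in the same serum-containing medium. The study draws the knockout as a line grown from 1 clone, so the tests measure the spread between libraries and not between clones, and a property of that clone and the loss of Nono cannot be told apart.

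YAP and TAZ (the product of Wwtr1) are transcriptional coactivators that do not bind DNA themselves. The Hippo kinases Mst1 and Mst2 activate Lats1 and Lats2, which phosphorylate YAP and TAZ, and the phosphorylated proteins are held in the cytoplasm by 14-3-3 proteins or degraded. Unphosphorylated YAP and TAZ enter the nucleus and bind the TEAD factors, which recognise the MCAT element, a short motif that was first studied in promoters of muscle genes. In muscle precursors the pathway is known for its links to proliferation and to mechanical load. Phosphorylation and the place of the proteins in the cell were not measured here, as RNA-seq gives transcript levels alone.

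The motif bound by TEAD factors is shown first, in the promoters of the target genes for which one was matched. Promoters were read from RefSeq (GRCr8) for 6 of the 10 members, namely Yap1, Wwtr1, Tead3, Ccn1, Ccn2 and Amotl2. Tead1, Tead2, Tead4 and Ankrd1 were not matched. Each line below gives the 250 bases before the annotated start, 5′ to 3′ on the strand of the gene, with CATTCC or its reverse complement GGAATG in capitals. Ccn1 lies at chr2:237225690-237225939 on the minus strand, Ccn2 at chr1:22624615-22624864 on the minus strand and Amotl2 at chr8:112182376-112182625 on the plus strand.
Ccn1: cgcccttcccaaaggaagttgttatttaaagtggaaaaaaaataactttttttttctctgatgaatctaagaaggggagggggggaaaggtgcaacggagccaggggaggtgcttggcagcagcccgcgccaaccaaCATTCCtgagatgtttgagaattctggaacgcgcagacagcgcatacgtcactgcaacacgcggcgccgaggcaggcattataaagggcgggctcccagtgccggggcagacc
Ccn2: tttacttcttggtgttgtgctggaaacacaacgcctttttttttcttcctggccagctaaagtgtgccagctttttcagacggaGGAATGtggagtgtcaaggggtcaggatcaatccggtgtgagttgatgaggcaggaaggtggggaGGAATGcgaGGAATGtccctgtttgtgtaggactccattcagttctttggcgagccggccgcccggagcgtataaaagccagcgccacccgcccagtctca
Amotl2: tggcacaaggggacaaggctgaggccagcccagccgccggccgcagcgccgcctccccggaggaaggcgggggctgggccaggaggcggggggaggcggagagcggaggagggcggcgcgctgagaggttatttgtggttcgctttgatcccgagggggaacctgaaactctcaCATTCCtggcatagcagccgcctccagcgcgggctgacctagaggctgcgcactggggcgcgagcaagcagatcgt

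The Ccn2 promoter held 3 copies, all as GGAATG, with first bases 166, 101 and 92 bases before the start. Ccn1 held 1 copy as CATTCC at 113 bases, Amotl2 held 1 copy as CATTCC at 76 bases, and the Yap1 promoter held 1 copy as GGAATG at 116 bases. No copy was found in the windows of Wwtr1 and Tead3. Of 33469 rat promoters of the same length, 12.1% held at least 1 copy on either strand, 0.902% at least 2 and 0.0807% (27 promoters) at least 3. The AP-1 motif TGANTCA, present in 6.34% of all promoters, and the CArG box of SRF, present in 1.5%, were in none of the 6 windows. A match describes letters in a window and does not show that a factor was bound.

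The targeted gene was checked first. Nono, a nuclear RNA-binding protein of paraspeckles, had 109, 94 and 96 counts in Nono-KO libraries, against 7329, 5884 and 5519 counts in WT libraries. Its log2 fold change, Nono-KO over WT, was -5.89, with an adjusted p of 2.47e-10 from the quasi-likelihood test of edgeR. Below, a gene rose or fell where the Benjamini-Hochberg adjusted p of that test, over all tested genes, was under 0.05. Values are CPM (counts scaled to library size) after TMM scaling, which are not corrected for gene length. Levels of different genes were therefore not compared, and each gene was compared with itself across libraries.

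Of the 10 members, 4 rose (Tead2, Tead3, Ccn2 and Ankrd1), 5 fell (Yap1, Wwtr1, Tead1, Tead4 and Ccn1) and Amotl2 did not pass. Most genes moved in this comparison, so these counts stand beside a wide background. Over all tested genes 72.2% passed, made up of 34.2% that rose and 38.1% that fell. The libraries of the groups did not overlap in 9 members, against 75.1% of all tested genes. With the stricter thresholds of the study (an absolute log2 fold change over 1 at an adjusted p under 0.01) Ankrd1 was higher and Tead1 was lower, and 8 members did not pass. Those thresholds were met by 29.5% of tested genes, 10.8% higher and 18.7% lower. The median log2 fold change was -0.14 over the 10 members and -0.049 over all tested genes.

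**Figure D1:**
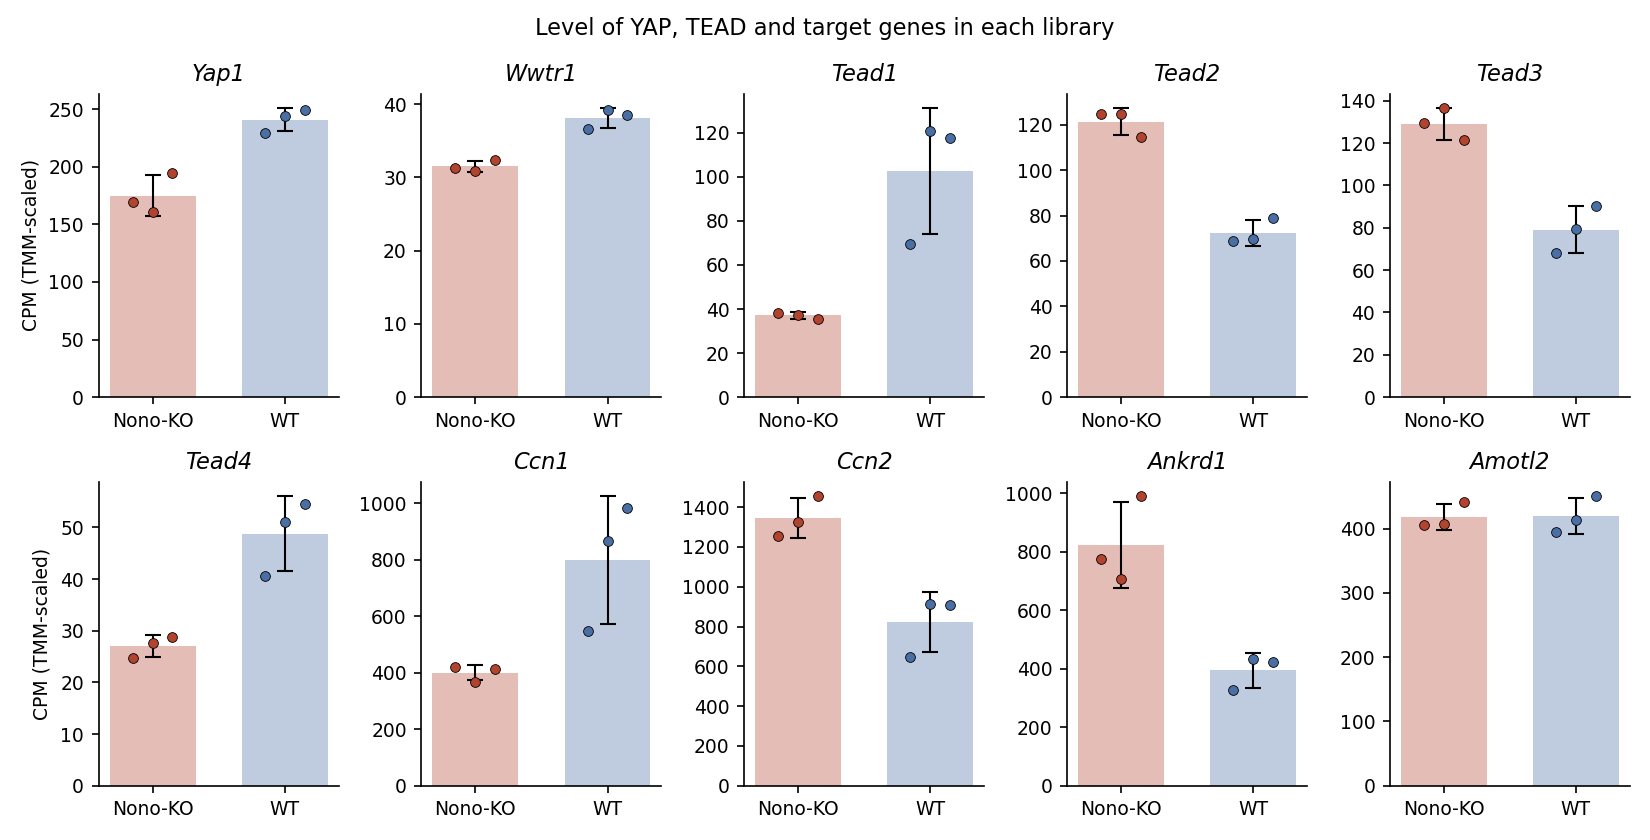
Level of each of the 10 members in CPM after TMM scaling, 1 panel per gene with its own linear axis starting at 0. Each point is 1 library (3 Nono-KO, 3 WT), and the bar marks the mean with its SD. Amotl2 alone had overlapping groups.

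Both coactivators fell by a small amount. Yap1, which encodes YAP, had 169.0, 160.6 and 194.9 CPM in Nono-KO libraries, against 229.6, 244.2 and 248.9 CPM in WT libraries. Every Nono-KO library lay below every WT library. The means were 174.8 ± 17.9 CPM in Nono-KO cells and 240.9 ± 10.1 CPM in WT cells (SD, n = 3 each), a log2 fold change of -0.46 (SE 0.092) with an adjusted p of 0.000724 from edgeR. Its absolute change was larger than that of 37.6% of tested genes.

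Wwtr1, which encodes TAZ, had 31.3, 30.8 and 32.3 CPM in Nono-KO libraries, against 36.6, 39.2 and 38.6 CPM in WT libraries. The groups were tight and did not overlap. Its fold change was -0.28 on the log2 scale (SE 0.091, adjusted p = 0.0166, edgeR). This call was lost with DESeq2 (-0.25, adjusted p = 0.0600) and in edgeR without Nono-KO replicate 1 (-0.26, adjusted p = 0.0716) or without Nono-KO replicate 2 (-0.25, adjusted p = 0.0851), while the direction stayed. The log2 ratio of Wwtr1 to Yap1 counts was -2.43, -2.38 and -2.59 in Nono-KO libraries, against -2.65, -2.64 and -2.69 in WT libraries, a mean difference of 0.19. The groups did not overlap in this ratio, and the exact two-sided permutation test gave p = 0.1, the smallest that 3 against 3 libraries allow.

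**Figure D2:**
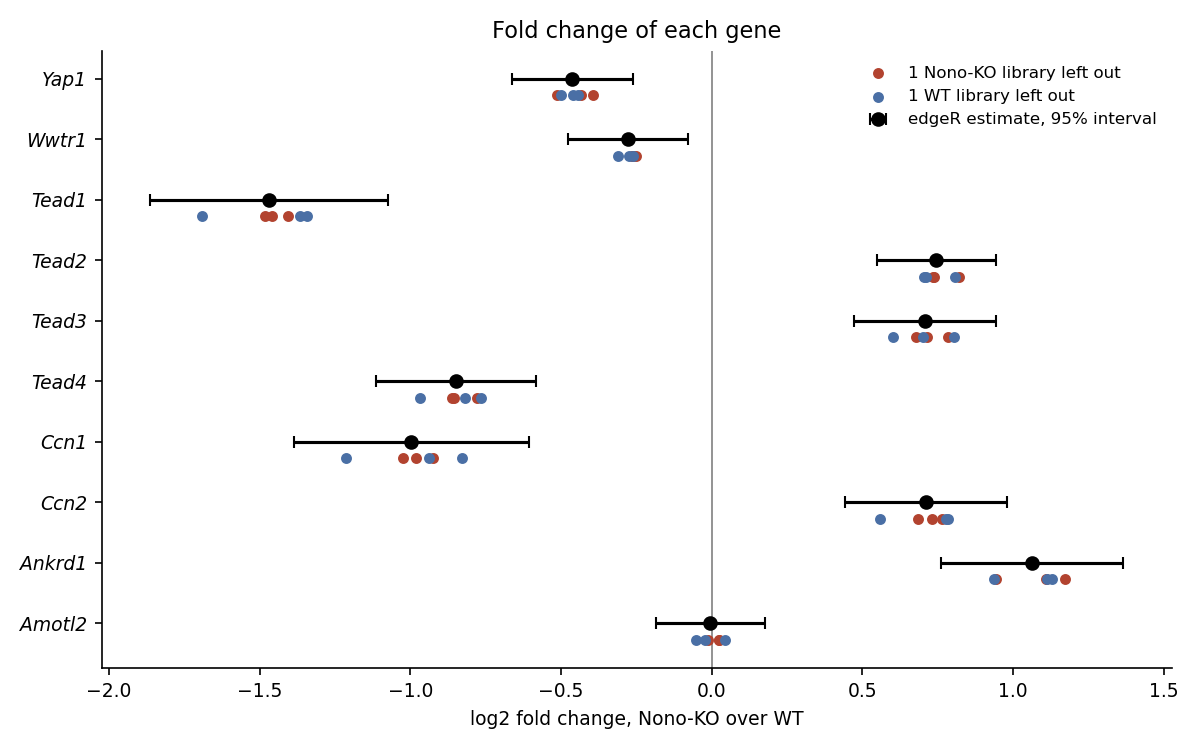
Log2 fold change of each member, Nono-KO over WT, with its 95% confidence interval from edgeR (3 libraries per group), in black. Coloured points under each interval are estimates with 1 library left out, red for a Nono-KO library and blue for a WT library. Tead1 had the lowest value (-1.47) and Ankrd1 the highest (1.06), and the interval of Amotl2 spanned 0.

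The 4 TEAD genes encode DNA-binding partners of YAP and TAZ with closely related DNA-binding domains, and they moved in opposite directions. Tead1, a TEAD factor required for heart development in mice, changed the most of all members. It had 38.4, 37.2 and 35.6 CPM in Nono-KO libraries, against 69.6, 120.7 and 117.5 CPM in WT libraries. The Nono-KO libraries were close together, and WT replicate 1 lay between them and the other WT libraries. The log2 fold change was -1.47 (SE 0.178, adjusted p = 2.58e-05, edgeR), or 2.77-fold lower, and -1.69 without WT replicate 1. The absolute change exceeded that of 84.2% of tested genes.

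Tead4, known in mice for trophectoderm formation and expressed in differentiating muscle cells, fell as well. It had 24.7, 27.7 and 28.8 CPM in Nono-KO libraries, against 40.7, 51.0 and 54.6 CPM in WT libraries, with no overlap. In edgeR its log2 fold change was -0.85 (SE 0.122, adjusted p = 6.52e-05). RefSeq also lists a Tead4-like gene that is not a row of the count table, so Tead4 may share reads with a near copy.

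Tead2 and Tead3 rose by similar amounts. Tead2, prominent in embryonic tissues, had 124.8, 124.9 and 114.5 CPM in Nono-KO libraries, against 68.7, 69.5 and 79.0 CPM in WT libraries. Its log2 fold change was 0.75 (SE 0.090, adjusted p = 1.71e-05, edgeR), a fold of 1.68 with a 95% interval of 1.46 to 1.92. Tead3, best known from placenta, had 129.4, 136.4 and 121.5 CPM in Nono-KO libraries, against 68.0, 79.2 and 90.1 CPM in WT libraries. All Nono-KO libraries lay above all WT libraries for both genes. For Tead3 the log2 fold change was 0.71 (SE 0.108, adjusted p = 9.99e-05, edgeR), a fold of 1.63 with a 95% interval of 1.39 to 1.92.

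The summed CPM of the 4 genes overlapped between groups. It was 317, 326 and 300 CPM in Nono-KO libraries, against 247, 320 and 341 CPM in WT libraries, with means of 315 ± 13.1 CPM and 303 ± 49.5 CPM (SD, n = 3 each). This sum is not corrected for gene length, so whether the total of TEAD transcripts changed cannot be read from it. The make-up of the counts differed. Tead1 took 12.1%, 11.4% and 11.8% of the summed Tead counts in Nono-KO libraries, against 28.2%, 37.7% and 34.4% in WT libraries. Tead4 took 7.80%, 8.48% and 9.57% in Nono-KO libraries, against 16.5%, 15.9% and 16.0% in WT libraries. For both genes the highest Nono-KO share lay below the lowest WT share.

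The shares of Tead2 and Tead3 were higher in Nono-KO cells. Tead2 took 39.3%, 38.3% and 38.1% in Nono-KO libraries, against 27.8%, 21.7% and 23.1% in WT libraries, and Tead3 took 40.8%, 41.8% and 40.5% in Nono-KO libraries, against 27.5%, 24.7% and 26.4% in WT libraries. The mean differences were -21.6 percentage points for Tead1, -7.51 for Tead4, 14.4 for Tead2 and 14.8 for Tead3. None of the groups overlapped, and each exact two-sided permutation test gave p = 0.1, the smallest possible, and 0.1 after Benjamini-Hochberg adjustment over these 4 shares and the Wwtr1 to Yap1 ratio. The shares are of counts and are not per length, so they describe a change between groups and not which TEAD transcript was the most abundant. The 4 shares of a library sum to the whole and are not independent of each other.

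**Figure D3:**
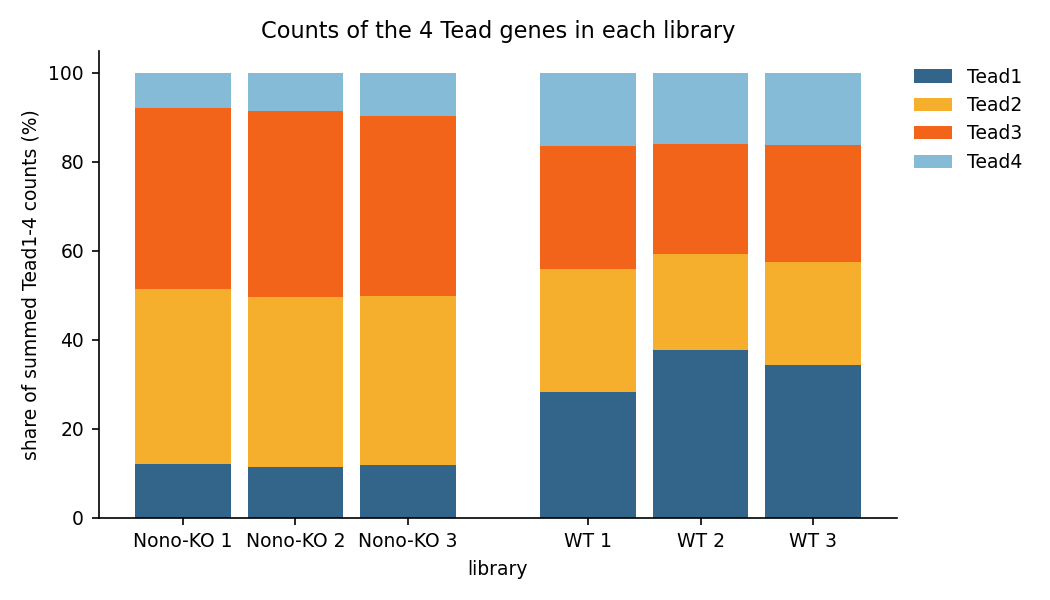
Share of Tead1, Tead2, Tead3 and Tead4 in the summed counts of the 4 genes (percent, not corrected for gene length), 1 stacked bar per library, Nono-KO replicates 1 to 3 and then WT replicates 1 to 3. Tead1 and Tead4 together take a smaller share in each Nono-KO bar than in each WT bar.

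The 4 target genes did not move together. Ccn1 and Ccn2 (formerly Cyr61 and Ctgf) encode secreted matricellular proteins of the same family that bind integrins, and they are among the most used readouts of YAP activity. Ccn1 had 420.6, 368.8 and 412.3 CPM in Nono-KO libraries, against 547.0, 868.0 and 982.3 CPM in WT libraries. The groups did not overlap, and the WT libraries spanned 1.80-fold. The log2 fold change was -0.996 (SE 0.176, adjusted p = 0.00046, edgeR), just short of the limit of 1 set by the study, and -1.21 without WT replicate 1. Ccn1 passed the thresholds of the study in 4 of 13 alternatives, including that without WT replicate 1 and that without Nono-KO replicate 1.

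Ccn2, in contrast, rose. It had 1257, 1326 and 1454 CPM in Nono-KO libraries, against 648.2, 913.1 and 906.3 CPM in WT libraries. On the log2 scale its fold change was 0.71 (SE 0.123, adjusted p = 0.000273, edgeR) and 0.56 without WT replicate 1. The ratio of Ccn2 to Ccn1 counts was 2.99, 3.59 and 3.53 in Nono-KO libraries, against 1.18, 1.05 and 0.923 in WT libraries. It averaged 3.37 ± 0.33 in Nono-KO cells and 1.05 ± 0.13 in WT cells (SD, n = 3 each), and since gene length cancels between libraries the change in this ratio can be read, but it was chosen after the values were seen and was not tested.

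Ankrd1 encodes a cardiac ankyrin repeat protein found in the nucleus and at the sarcomere, which is induced by stretch. It rose the most of the members, with 774.9, 705.6 and 989.3 CPM in Nono-KO libraries, against 325.6, 433.2 and 423.3 CPM in WT libraries. The log2 fold change was 1.06 (SE 0.138, adjusted p = 3.32e-05, edgeR), a fold of 2.09 with a 95% interval of 1.69 to 2.58. Every Nono-KO library lay above every WT library. Ankrd1 fell below the fold limit of the study without Nono-KO replicate 3 or without WT replicate 1, where its log2 fold change was 0.94 in each case, and kept its call at an adjusted p under 0.05.

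Amotl2 encodes an angiomotin family protein that binds and restrains YAP and is itself a YAP target. It had 405.6, 407.4 and 441.4 CPM in Nono-KO libraries, against 394.7, 413.5 and 450.0 CPM in WT libraries. The groups overlapped. The log2 fold change was -0.0043 (SE 0.082, adjusted p = 0.965, edgeR), with a 95% interval of the fold from 0.880 to 1.13, and its sign depended on the scaling and on the libraries used. The libraries held 6935 to 8336 counts of Amotl2 in Nono-KO cells and 7734 to 8087 counts in WT cells.

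WT replicate 1 had the lowest level of the 3 WT libraries for all 10 members, whether the member rose or fell. Over all tested genes this library was the lowest WT library in 42.1%. The distance was largest for Tead1 and Ccn1 (-0.52 and -0.50 from the WT mean on the log2 scale). Among Nono-KO libraries, replicate 3 was the highest for 6 members, against 41.7% of tested genes. Leaving out WT replicate 1 changed no call of a member at an adjusted p under 0.05. Every fall became larger and every rise smaller (0.60 for Tead3). That direction follows from this library being the lowest WT library for all 10 members. The part of this library in the results was otherwise not tested.

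Around the members, genes of the pathway were taken from 9 lists, some of which share genes. Of 141 listed genes 126 were tested, and 22 rose (17.5%), 73 fell (57.9%) and 31 did not pass, with a median log2 fold change of -0.446. The background shares of 34.2% rising and 38.1% falling apply here too, and no test of the lists was run.

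The Hippo kinase cascade had 15 genes that fell, 4 that rose and 3 that did not pass of 22 tested (median -0.579). Lats1, which phosphorylates YAP and TAZ, averaged 4.62 CPM in Nono-KO cells and 19.5 CPM in WT cells (log2 fold change -2.07, SE 0.210). Its paralog Lats2, a YAP target as well as a YAP kinase, averaged 76.5 CPM in Nono-KO cells and 134 CPM in WT cells (-0.81). The Lats cofactors Mob1a (log2 fold change -1.39) and Mob1b (-2.48) fell. So did the Mst scaffold Sav1 (-0.48) and the upstream regulator Nf2 (-0.62). The Mst kinases Stk3 (-0.54, edgeR adjusted p = 0.0254) and Stk4 (-0.32, adjusted p = 0.0198) passed with all libraries. Stk3 did not pass in 4 of the 6 fits that left out 1 library (each of Nono-KO replicates 1 and 2 and WT replicates 2 and 3), and Stk4 passed neither in 5 of them (all but that without WT replicate 1) nor with DESeq2. The count of genes that fell was 11 without Nono-KO replicate 1 or 2, and 12 without WT replicate 2 or 3. Among WW and FERM domain proteins that activate the cascade, Wwc3 (-1.81) and Frmd6 (-1.60) fell, whereas Wwc2 did not pass (0.07, edgeR adjusted p = 0.651) and Wwc1 was not tested. Rassf1, which binds the Mst kinases, rose (0.53).

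The Map4k kinases, which can phosphorylate Lats in parallel to Mst, went both ways. Map4k4 averaged 223 CPM in Nono-KO cells and 266 CPM in WT cells (-0.26) and passed, but not without Nono-KO replicate 1 (-0.23, edgeR adjusted p = 0.0953), Nono-KO replicate 2 (-0.21, adjusted p = 0.11) or WT replicate 3 (-0.21, adjusted p = 0.0624). Map4k3 (-0.63, edgeR adjusted p = 0.023) passed as well, but not without Nono-KO replicate 1, Nono-KO replicate 2 or WT replicate 2 (adjusted p of 0.08, 0.0713 and 0.103). Map4k5 (-1.66) and Tnik (-1.26) fell, Map4k2 (0.80) rose and Mink1 did not pass (-0.08). Of the Tao kinases, which act upstream of Mst, Taok1 fell (-1.50), Taok2 rose (0.30) and Taok3 did not pass (-0.15). Map4k1, known mainly from blood cells, had 373, 423 and 399 counts in Nono-KO libraries, against 20, 11 and 14 counts in WT libraries, with a log2 fold change of 4.80 (SE 0.191) that rests on few WT counts. Genes other than those named by the rule in the processing notes were named here after their values were seen, so that all 23 genes of the cascade list are given.

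Junction and membrane regulators, which hold YAP at cell contacts or signal to the cascade, had 8 genes that fell, 3 that rose and 3 that did not pass of 14 tested (median -0.519). The tight junction scaffold Tjp1 averaged 30.0 CPM in Nono-KO cells and 73.9 CPM in WT cells (-1.30). The protocadherins Fat1 (-0.99) and Fat4 (-2.48) fell, as did the phosphatase Ptpn14 (-0.64), which binds YAP. The 3 that rose were Crb2 (1.34, at a mean of 1.93 CPM in Nono-KO cells), Wtip (0.61) and Scrib (0.57). Ajuba (0.07) and Pard3 (-0.09) did not pass. Crb2, Wtip, Scrib, Ajuba and Pard3 were named after their values were seen. In the angiomotin family of Amotl2, Amotl1 fell with 146 CPM in Nono-KO cells and 239 CPM in WT cells (-0.71), and Amot did not pass (-0.29, edgeR adjusted p = 0.0893). Amotl1 and Amot were named as relatives of Amotl2.

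The STRIPAK complex, a phosphatase complex that removes activating phosphates from Mst kinases, had 8 genes that fell, 2 that rose and 4 that did not pass of 14 tested (median -0.487). Its scaffolds Strn (-1.94) and Strn3 (-1.37), the kinase Stk24 (-0.99) and the catalytic phosphatase subunit Ppp2ca (-0.92) fell. Stk25 (0.62) rose, and the phosphatase scaffold Ppp2r1a did not pass (0.12, edgeR adjusted p = 0.174).

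Of 10 tested genes for 14-3-3 proteins and for YAP and TAZ degradation, 8 fell, 0 rose and 2 did not pass (median -0.477). All 6 tested 14-3-3 genes fell with all libraries, but Ywhag (-0.29, edgeR adjusted p = 0.0094) did not pass without Nono-KO replicate 2 (-0.25, adjusted p = 0.0679). The list had 6 genes that fell in that fit. Ywhah averaged 141 CPM in Nono-KO cells and 400 CPM in WT cells (-1.51), and Ywhaz averaged 336 CPM in Nono-KO cells and 619 CPM in WT cells (-0.88). Ywhae (-0.59) and Ywhaq (-0.59) were among the others. Vgll4, which competes with YAP for TEAD factors, fell (-0.74), whereas Vgll3 did not pass (-0.04, edgeR adjusted p = 0.756).

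**Figure D4:**
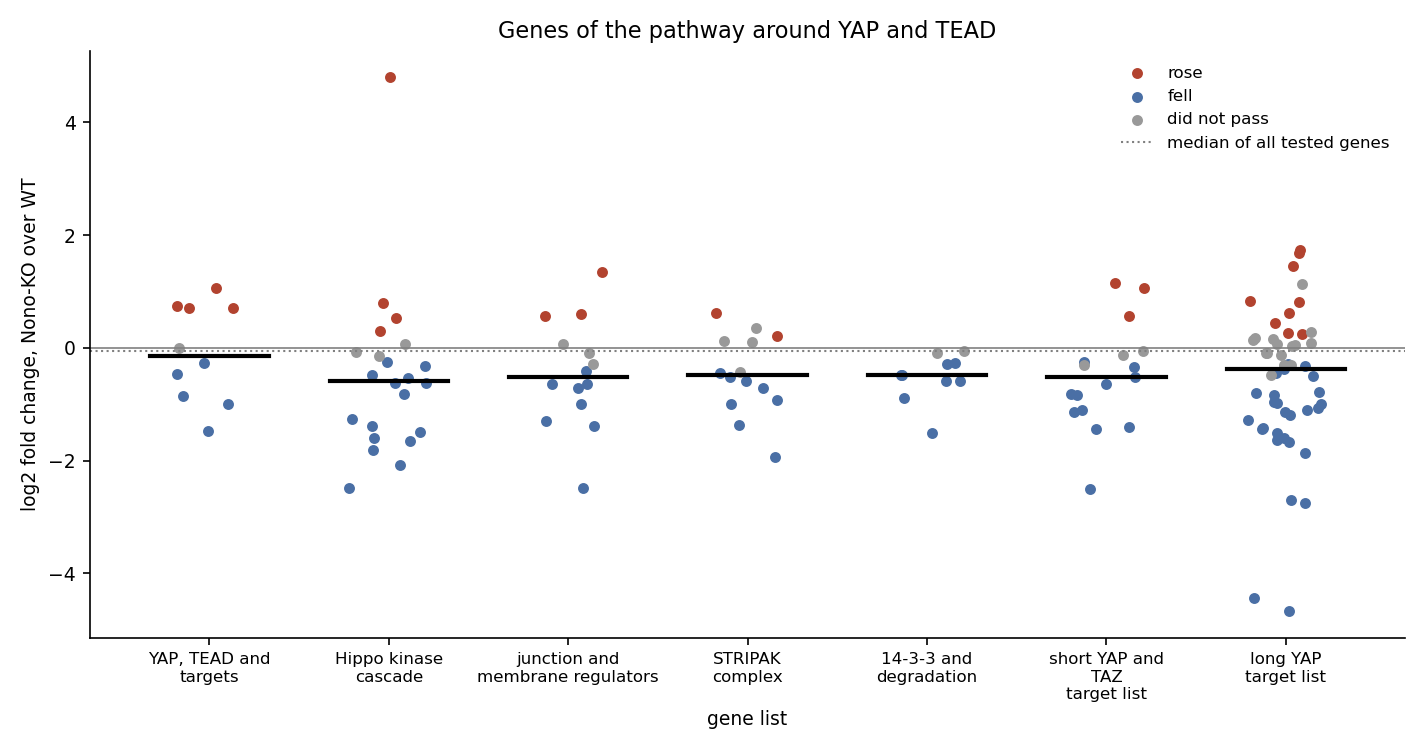
Log2 fold change, Nono-KO over WT, of each tested gene in the 10 members and in 6 lists of pathway genes, with the colour giving the edgeR call at an adjusted p of 0.05. Black bars mark the median of each list, which was -0.14 for the members and between -0.579 and -0.367 for the 6 lists, and the dotted line marks the median of all tested genes (-0.049).

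Other targets mostly fell. In the short list of YAP and TAZ targets, 11 genes fell, 3 rose and 3 did not pass of 17 tested (median -0.514). The receptor tyrosine kinase Axl averaged 319 CPM in Nono-KO cells and 705 CPM in WT cells (-1.14), and the membrane repair gene Myof averaged 243 CPM in Nono-KO cells and 638 CPM in WT cells (-1.39). Dock5 (-2.49), Asap1 (-1.44) and Ccdc80 (-0.51) fell. F3, tissue factor, rose (1.15), as did Gadd45a (1.06) and Arhgef17 (0.57). The last 2 were named after their values were seen, so that all 3 genes of the short list that rose are given.

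The longer list of YAP targets had 27 genes that fell, 9 that rose and 15 that did not pass of 51 tested (median -0.367). Over the 13 alternatives of the fit, 24 to 30 of its genes fell and 7 to 10 rose. The kinase gene Sgk1 averaged 2.31 CPM in Nono-KO cells and 58.9 CPM in WT cells (-4.66). The guidance cue Slit2 (-2.70), Top2a (-1.86), a marker of dividing cells, and the matricellular gene Thbs1 (-0.99) fell. Of the 9 that rose, the largest changes were those of Gas6 (1.73) and Pdlim2 (1.68), named after their values were seen. The actin crosslinker Flna did not pass (0.16, edgeR adjusted p = 0.147). Among relatives of Ccn2, Ccn4 fell (-1.99), and Ccn5 did not pass (0.60, edgeR adjusted p = 0.438), with 630, 142 and 116 counts in WT replicates 1, 2 and 3. Without WT replicate 1 Ccn5 rose (1.71, edgeR adjusted p = 3.77e-08). Ankrd23, a relative of Ankrd1, rose (1.11) at a mean of 3.35 CPM in Nono-KO cells and 1.55 CPM in WT cells.

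Among the 3 members with the largest change, the genes most like them over the 6 libraries were found by Pearson correlation of log2 CPM, given as a description because the 2 groups alone make many genes alike. Tead1 was most like Cebpz (r = 0.9998) and Fam167a (0.9996), and 1686 genes had r over 0.95 with it. Ankrd1 was most like Tceal7 (0.9983) and Hibadh (0.9972), with 276 such genes, and Ccn1 was most like Ripk3 (0.9976) and Arhgap39 (0.9970), with 536.

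The 6 libraries held 17612958 to 18770188 counts in Nono-KO cells and 18138400 to 19253858 counts in WT cells. The label of cardiac muscle was checked against markers. Of 11 cardiomyocyte markers 5 were tested, of which Actn2 and Nkx2-5 rose and 3 did not pass. Myh6, Myh7, Ryr2, Nppa and Tbx5 were at or near 0, with at most 17 counts of any of them in a Nono-KO library and at most 18 in a WT library. The list summed to 173 to 200 CPM in Nono-KO libraries and 48.8 to 127 CPM in WT libraries, and Tnnt2 had 1895 to 2583 counts in Nono-KO libraries, against 269, 1459 and 1492 counts in WT libraries. Of 8 myoblast markers 4 were rows of the count table, and Myf5, Myf6, Pax3 and Pax7 were not. The 4 summed to 870 to 968 CPM in Nono-KO libraries and 565 to 747 CPM in WT libraries. Myog and Des rose, and Myod1 and Cdh15 did not pass. Smooth muscle markers, of which 5 of 6 rose, summed to 14600 to 15700 CPM in Nono-KO libraries and 6640 to 7490 CPM in WT libraries. Fibroblast markers, of which 1 rose and 3 fell of 4 tested, summed to 25200 to 30100 CPM in Nono-KO libraries and 34200 to 41800 CPM in WT libraries. Endothelial markers summed to 0.76 to 1.27 CPM in Nono-KO libraries and 2.94 to 4.45 CPM in WT libraries. Immune markers summed to 50.8 to 53.9 CPM in Nono-KO libraries and 9.90 to 11.3 CPM in WT libraries. Among immune markers Cd3e rose (3.09), Csf1r fell (-1.87) and Cd68 did not pass. The cardiomyocyte, myoblast, smooth muscle, fibroblast, endothelial and immune sums all differed between the groups without overlap, as did 9 members and 75.1% of all tested genes. Few genes made up most of several sums. In Nono-KO cells Cd3e averaged 50.8 CPM, Tnnt2 128 CPM and Acta2 11600 CPM. Col1a1 and Col1a2 averaged 13190 and 13860 CPM there. Tnnt2, the largest of the cardiomyocyte markers, did not pass (edgeR adjusted p = 0.18). The part of these sums in the results was not tested. In bulk RNA fewer cells of a type and less RNA per cell cannot be told apart.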

How the data were processed

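RNA-seq of 3 Nono-KO and 3 WT libraries of H9c2 cells was analysed, grouped by the genotype and title in the labels. The authors made stranded mRNA libraries and deposited raw counts per gene symbol, without scaling. The 6 files of single libraries equal the table. Processing notes of the submitters list Trimmomatic, HISAT2, HTSeq and mRatBN7.2 without versions, whereas Bowtie2 and Rn6 stand in the methods of the paper, and neither an annotation nor a strand option for counting is stated, being not given in the sources used here. Paralogous reads may have been split or dropped.

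Counts were tested in R 4.3.3 with the robust quasi-likelihood test of edgeR 4.0.16, TMM scaling and filterByExpr, which kept 12028 genes and left out 4291. P-values were Benjamini-Hochberg adjusted over all tested genes. Standard errors were the absolute log2 fold change over the square root of F. Totals of 17612958 to 19253858 counts limit the precision for genes with few counts. The test was checked on simulated data. Alternatives were DESeq2 1.42.0, other scalings and filters, a replicate block, the thresholds of the study and leaving out each library.

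The members and lists were chosen with earlier results of these data known, and lists were written from general knowledge. Named genes were the members, Nono, and from each list up to 4 genes with the largest significant change at 5 CPM or more in the higher group and the 2 with the highest CPM. The 3 members with the largest change also brought in their 2 most similar genes. Promoters came from RefSeq GRCr8, another build, and no coordinate of the count files was used. ATAC-seq data were left out, and some genes that the rule names are not reported here.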

Additional observations from a re-analysis of the deposited data

How the results depend on the processing

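Of the 10 members, 8 kept their direction and their side of an adjusted p of 0.05 in all 13 alternatives of the fit. Wwtr1 kept its direction but passed neither with DESeq2 (-0.25) nor with the replicate block (-0.28, adjusted p = 0.0504), and leaving out 1 library gave -0.31 to -0.25. The sign of Amotl2, which never passed, turned with DESeq2 (0.025), with its size factors in edgeR (0.047), with upper quartile scaling (0.013) and with a minimum of 1 CPM in 3 libraries (0.0092), and leaving out 1 library gave -0.052 to 0.043. The cause was not tested. At the thresholds of the study 1294 of all genes were higher and 2252 lower, with 1 member higher and 1 lower. The median log2 fold change was 0.0579 with DESeq2, over 14103 tested genes, and -0.049 in the main edgeR fit, over 12028. These medians are of different sets of genes, so their difference of 0.107 is not a shift of the same genes. Across groups, same-numbered libraries correlated at 0.0454, -0.165 and -0.192 in their deviations from the group means. Differently numbered libraries correlated at -0.125 to 0.251. These values showed no pairing by replicate number, but with 3 libraries a group they cannot exclude it. With the replicate block 3944 genes were higher and 4443 lower, and Wwtr1 was the only member whose call changed. In 5 alternatives 1 rather than 2 genes of the STRIPAK list rose, and without WT replicate 1 Ccn5 rose. With 3 libraries a group, small changes such as that of Wwtr1 lie near the limit of detection.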
